A study of Mus musculus with 28 samples.

Results

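The 200 array probes described here are those whose signal differed most between 7 clonal lines of mouse embryonic stem (ES) cells while the transgene of each line was held off. They were chosen by measured values. R is the log2 ratio of a line's own RNA, in Cy3, over a common reference RNA, in Cy5, so that a difference of 1 in R means 2-fold. Of the 42006 probes on the array, 23008 were well above background in both dyes on all 28 arrays, and 15658 of these had a mean R between -1 and 1 over the 14 arrays with doxycycline (Dox). The 200 with the largest range, the highest minus the lowest of the 7 line means with Dox, are the members. Every member is measured on every array, since the choice required it. The files pair no probe with a gene name, so members are called by probe identifier and shown by sequence.

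Each line is a single clone of male ES cells of the labelled strain 126S6/SvEvTac that carries a tetracycline-regulated transgene named Tcl1, Etv5, Tbx3, Jarid2, Jmjd2c, Ctbp2 or Mettl5, and the titles of all 7 carry the cell name MC1R(20). All cells were at passage 25, on gelatin, in medium with LIF and puromycin (1.5 µg/ml). The groups with Dox (0.2 µg/ml) kept the transgene off, and those without Dox turned it on for 48 h, to day 2. Each line was split into 6 wells, 3 per condition, and RNA of 2 wells per condition was hybridised. The promoter of the transgene is not given in the sources used here. Replicates are wells of 1 clone, so a p-value measures the spread between such wells and not between independent clones of the same transgene.

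An ES cell clone grows from 1 cell, and clones of a common parent can differ in expression through changes that cells inherit, such as methylation, altered imprinting or gains and losses of DNA, whatever transgene they carry. In a Dox-regulated system the cells with Dox are the control for the transgene, so differences between lines with Dox were measured in parallel cultures meant to hold the transgenes off. Whether any transgene was expressed with Dox could not be checked here. TCL1 is a coactivator of AKT kinases, ETV5 and TBX3 are transcription factors, JARID2 is a subunit of a Polycomb complex, JMJD2C is a histone demethylase, CTBP2 is a corepressor and METTL5 is an RNA methyltransferase.

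Line and slide coincide in these data: the 28 arrays lie on 8 slides, with each line on a slide of its own, apart from 1 Tbx3 array without Dox (replicate 1) that lies on another slide than the other 3 of its line. A difference between lines and a difference between slides therefore cannot be told apart. The reference dye, whose RNA is common to the arrays, shows only those slide effects that reach that dye. The Tbx3 line alone can be compared across 2 slides. Replicate arrays correlated at 0.968 to 0.997 over the 23008 probes. The SD of the replicate difference was largest in the Tbx3 line with Dox, at 0.33, against 0.11 to 0.20 in the groups of the other lines. No spot of any array was saturated, and the median Cy3 signal of an array was 81.3 to 117 scanner units. The array's gene content being unnamed, neither the transgenes nor ES cell markers could be checked against the labels. In these bulk samples fewer cells of a kind and less RNA per cell cannot be told apart.

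The probes below show the largest ranges of each kind of pattern and are 60 bases long. The first set holds the members in which 1 line stood furthest apart, with the line and the side named in the text that follows.
Z00001421-1: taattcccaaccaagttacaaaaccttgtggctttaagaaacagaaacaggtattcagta
Z00025402-1: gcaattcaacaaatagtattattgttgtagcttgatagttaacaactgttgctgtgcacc
Z00075595-1: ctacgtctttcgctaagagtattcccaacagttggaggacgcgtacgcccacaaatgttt
Z00023735-1: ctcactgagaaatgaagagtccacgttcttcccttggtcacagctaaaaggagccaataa
Z00031583-1: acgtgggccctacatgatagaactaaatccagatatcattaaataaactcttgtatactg
Z00078187-1: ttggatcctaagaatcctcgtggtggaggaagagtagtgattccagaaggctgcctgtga
Z00005644-1: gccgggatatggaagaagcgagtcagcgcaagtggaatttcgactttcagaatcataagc
Z00053992-1: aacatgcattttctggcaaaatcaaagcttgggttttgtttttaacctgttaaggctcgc
Z00036619-1: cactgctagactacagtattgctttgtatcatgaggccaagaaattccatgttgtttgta
Z00063059-1: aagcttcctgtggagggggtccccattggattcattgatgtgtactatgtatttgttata

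The second set holds the member that left its low level on Dox removal, 3 members with no line apart, and 1 pair with overlapping sequence. Capitals mark the bases that match a RefSeq promoter window in Z00038074-1 and the 58 bases that the last 2 probes share.
Z00036262-1: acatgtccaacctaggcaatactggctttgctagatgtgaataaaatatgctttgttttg
Z00007374-1: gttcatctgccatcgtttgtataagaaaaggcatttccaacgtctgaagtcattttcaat
Z00022675-1: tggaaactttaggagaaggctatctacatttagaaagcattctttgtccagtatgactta
Z00038074-1: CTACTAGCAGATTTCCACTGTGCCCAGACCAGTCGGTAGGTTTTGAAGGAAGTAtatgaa
Z00025726-1: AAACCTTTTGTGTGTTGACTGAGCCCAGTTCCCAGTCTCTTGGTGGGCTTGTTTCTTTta
Z00074409-1: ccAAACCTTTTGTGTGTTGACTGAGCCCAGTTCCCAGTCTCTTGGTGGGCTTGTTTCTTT

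The range of the members with Dox ran from 1.76 to 5.25 with a median of 2.09, and the median over the 15658 probes that could have been chosen was 0.53. A range over 3 was reached by 22 members and a range over 4 by 5. The end of the list fell on a continuous slope: the last member, Z00036531-1, had a range of 1.7624 and the first probe left out, Z00053216-1, one of 1.7619. Members were dimmer than the probes they were chosen from, with a median mean log2 Cy3 signal of 8.90 against 10.7. Their probes had a mean GC content of 43.2% against 45.4%. The polyadenylation hexamer AATAAA, searched on the strand of the probe, occurred in 9.5% of the members, 7.93% of the probes they were chosen from and 6.93% of all probes on the array.

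A line was taken to stand apart where the gap between it and the next of the 7 sorted line means with Dox was at least 0.5 of the range. This held in 96 of the 200 members, and the Tcl1 line (55 members) and the Tbx3 line (37 members) accounted for 92 of them. The Tcl1 line was the lowest in 47 of its 55 and the Tbx3 line in 33 of its 37. The Etv5, Jarid2, Jmjd2c and Ctbp2 lines stood apart in 1 member each, always as the lowest, and the Mettl5 line in none. These counts describe the arrays that chose the members and are not tested.

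The arrays without Dox did not enter the choice, and on these the same line could be tested. Compared with the mean of the other 6 lines (limma, Benjamini-Hochberg adjustment over the 23008 probes), the line that stood apart with Dox differed in the same direction in 93 of the 96 members at an adjusted p under 0.05. Large parts of the array pass the same test, so each count is given beside the share of all tested probes. For the Tcl1 line 46 of 47 low members passed against 22.1% of all probes, and 8 of 8 high members against 30.8%. For the Tbx3 line 31 of 33 low members passed against 28.4%, and 4 of 4 high members against 29.2%. The fit shares 1 estimate of the spread between all lines. Without Dox the SD of the replicate difference was 0.28 in Tbx3, against 0.12 to 0.20 in the other lines. The SEs and p-values of the Tbx3 members may therefore be too small. The single low members of the Ctbp2, Etv5, Jarid2 and Jmjd2c lines all passed, against 16.3% of the tests over all probes in these 4 lines. The members that did not pass were Z00036262-1 in the Tcl1 line (+0.07, adjusted p = 0.423) and Z00048170-1 and Z00031834-1 in the Tbx3 line (-0.52 and -0.33, adjusted p = 0.0717 and 0.0898).

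A stricter count asks that both arrays of the line without Dox lie beyond all 12 arrays of the other lines without Dox. This held in 45 of the 47 Tcl1-low members, against 11.2% of all tested probes, and in 8 of 8 Tcl1-high members, against 15%. It held in 13 of the 33 Tbx3-low members (11.1% of all probes) and in 1 of the 4 Tbx3-high members (10.9%). The single members of Ctbp2, Etv5, Jarid2 and Jmjd2c also met it, against 3.51%, 9.97%, 7.85% and 3.32%. Over all 200 members and without naming a line, 187 differed between the 7 lines without Dox (limma moderated F test, adjusted p under 0.05), against 81.4% of all tested probes. By this F test 23 of the 33 Tbx3-low and 3 of the 4 Tbx3-high members passed, and 47 of the 47 Tcl1-low members. In both Tbx3 sets that is a smaller share than the 81.4% of all tested probes.

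The Tcl1 line held the largest block, and its low members were as far from the other lines without Dox as with it. The distance of the Tcl1 line from the mean of the other 6 had a median of -2.09 with Dox and -2.43 without over the 47 low members. As a share of the distance with Dox, the distance without had a median of 109%, at least 70% in 45 members and over 100% in 35. The range of the line means of the Cy5 reference had a median of 0.29 in these members, against 2.73 for the Cy3 channel, so it was the Cy3 channel that varied. Line and slide coincide in these members too. No single line was next to Tcl1: the second lowest line was Etv5 in 13 of the 47, Ctbp2 in 11, Tbx3 in 8, Jarid2 in 7, Mettl5 in 5 and Jmjd2c in 3.

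Z00025402-1 had the largest range of these members, at 5.24. In the Tcl1 line R was -3.32 and -3.42 with Dox, while the 12 arrays of the other lines ran from 0.43 through a median of 1.72 to 1.88. Without Dox the Tcl1 arrays were at -3.27 and -3.62 and the others between 0.58 and 1.86, with a median of 1.74. The Tcl1 line was low on all 4 arrays, with no overlap in either condition. On the arrays without Dox its difference from the mean of the others was -4.89 (SE 0.07), or 29.6-fold lower (limma, adjusted p = 5.6e-11). Over the 14 group means, the 2 members most like it had Pearson correlations of 0.990 and 0.971 with it, and 15 of the members and 132 of all tested probes exceeded 0.9. These correlations are a description only, since the means with Dox among the 14 chose the members.

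Z00075595-1 was the next, with a range of 4.37. With Dox the Tcl1 arrays stood at -4.15 and -4.05, and the others between -0.83 and 0.32. Without Dox they stood at -2.68 and -3.01, and the others between -0.97 and 0.58. The probe was thus higher by 1.25 in the Tcl1 line once Dox was gone, yet still below all other arrays, with a difference of -2.84 (SE 0.09) from the mean of the other lines (limma, adjusted p = 4.2e-09). The Etv5 and Tbx3 lines, between -0.97 and -0.43 on their 8 arrays, were also below the 16 arrays of the remaining lines, which ran from 0.19 to 0.58.

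Z00036262-1 was the exception among the low members of Tcl1, and it is named after its values were seen. With Dox the Tcl1 line was at -1.72 and -1.58, with the others between -0.22 and 0.82. Without Dox the Tcl1 arrays read 0.20 and 0.14, inside the span of the others, which was -0.18 to 0.47. The change of 1.82 was the largest rise of any member in that line, and the distance without Dox was -3.75% of that with Dox. Z00059271-1, also named after its values were seen, went the same way, from -1.82 and -1.74 to -0.30 and -0.34. It kept a difference of -0.25 (SE 0.08) from the other lines (limma, adjusted p = 0.0298), and this call was lost when either Tcl1 array without Dox was left out (adjusted p = 0.0993 and 0.162, with the spread taken from the other lines only). Z00010834-1, likewise named after its values were seen, moved away instead, from -2.40 and -2.11 with Dox to -3.02 and -3.16 without, where its difference from the other lines was -3.34 (SE 0.05; adjusted p = 7.6e-11).

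In the 8 members where Tcl1 was the high line, the distance without Dox had a median of 91.7% of that with Dox. Z00023735-1 read 1.90 and 1.45 in the Tcl1 line with Dox, against -1.33 to -0.14 on the other 12 arrays. Without Dox it read 1.68 and 1.28 against -1.13 to -0.13, a difference of 2.12 (SE 0.14; limma, adjusted p = 1.0e-06). Replicates of this probe lay further apart than those of the Tcl1-low probes above, as in the Jarid2 line with Dox (-0.60 and -1.33). Z00031583-1 read 1.69 and 1.75 with Dox, against -0.80 to 0.62 in the other lines, and 1.64 and 1.62 without. Without Dox the next line was Ctbp2, whose arrays of this probe went from -0.49 and -0.53 to 0.92 and 0.93. Tcl1 still lay above all 12 others, by 1.56 (SE 0.08) relative to their mean (adjusted p = 1.1e-07).

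The Tbx3 members differed from the Tcl1 members in the channel that varied. Over the 33 Tbx3-low members the range of the line means of the Cy5 reference had a median of 1.17, against 0.97 for Cy3, and the reference range exceeded the Cy3 range in 22 of all 37 Tbx3 members and in none of the other 163. It reached at least 0.5 of the range of R in 24 of the 37, in 0 of the 55 Tcl1 members and in 4 of the 104 members with no line apart. Distances on each Tbx3 array, also those without Dox, were taken from the mean of the other lines' arrays with Dox. So measured, the reference signal of the 33 low members had medians of 1.03 and 1.00 on the Tbx3 arrays with Dox. On the array without Dox that shares their slide it was 0.99. On the Tbx3 array of the other slide that median was -0.02. The reference signal was thus brighter for these probes on 3 arrays of 1 slide and not on the array of the other. Whether the reference RNA was the same on both slides was not tested.

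The sample channel of the 33 Tbx3-low members was mostly below that of the other lines with Dox on both slides. The distances on single arrays, also of the Tbx3 arrays without Dox, are again from the other lines' arrays with Dox. Those arrays chose the members, so the signs and sizes are a description only. In Cy3, centred on each array's 75th percentile, the median distance was -0.38 and -0.94 with Dox. It was -0.60 on the array without Dox of the same slide and -0.56 on the array of the other slide. All 33 members were below 0 there on both arrays with Dox, 31 on the array without Dox of the same slide and 32 on the array of the other slide. On R the corresponding medians were -1.52, -1.89 and -1.67 on the 3 arrays of 1 slide and -0.62 on the other, with all 33 members below 0 on each of the 4 arrays. With the Tbx3 array of the other slide as the only one without Dox, 21 of the 33 low and 2 of the 4 high members passed the limma test, against 24% and 22.6% of all tested probes. With only the array of the line's main slide 32 and 4 passed, against 29.6% and 32.3%. In both of these fits the Tbx3 line has 1 array, which is assumed to vary like the other lines, whose replicates give all of the spread. With the Cy3 channel alone and both arrays 30 and 3 passed, against 24.2% and 25.5%. From the other lines of the same condition, the distance without Dox had a median of 59.2% of that with Dox in the low members. In the high ones it was 53.9%, and both include the array of the other slide.

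Z00078187-1 had the largest range of the Tbx3-low members, at 2.41. With Dox the Tbx3 arrays read -2.24 and -2.32, and the other 12 ran from -0.96 to 0.17. Without Dox the array of the same slide read -2.37 and that of the other slide -1.42, with the other lines between -0.96 and 0.15. All 4 Tbx3 arrays were below every array of the other lines. Without Dox the difference was -1.59 (SE 0.19; limma, adjusted p = 9.8e-05), and with the array of the other slide alone it was -1.12. The range of the reference in this probe was 1.03 and that of Cy3 was 1.45.

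Z00005644-1, with a range of 2.35, depended more on the slide. With Dox it read -1.64 and -2.02 in the Tbx3 line, against 0.20 to 0.55 in the other lines. The array without Dox of the same slide read -1.92 and that of the other slide -0.45, against -0.07 to 0.44. Here the reference range, 1.32, exceeded the Cy3 range, 1.07. The difference without Dox was -1.39 (SE 0.26; limma, adjusted p = 0.00146) over both slides, where the 2 Tbx3 arrays had an SD of 1.03. The other lines without Dox had SDs of 0.03 to 0.16. The fit shares 1 spread between all lines, so this SE understates the spread of the Tbx3 arrays. With the array of the other slide alone the difference was -0.66.

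The 2 widest of the members in which Tbx3 was the high line showed the same dependence. Z00035701-1 read 2.04 and 1.68 with Dox, 1.52 on the same slide without Dox and 0.72 on the other slide, inside the span of the other lines without Dox, which reached 0.95. Its difference without Dox was 0.63 (SE 0.16; limma, adjusted p = 0.00769), and with the array of the other slide alone it was 0.23 and did not pass (adjusted p = 0.138, with the spread taken from the other lines only). Z00071496-1 read 1.28 and 1.70 with Dox, 1.28 and 0.65 without, and -0.40 to 0.80 in the other lines without Dox, a difference of 0.89 (SE 0.16; adjusted p = 0.00124).

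The Ctbp2 line stood apart in a single member, and that member had the largest range of all. Z00001421-1 read -4.64 and -5.15 in the Ctbp2 line with Dox and -4.66 and -4.74 without. The 24 arrays of the other lines lay between -0.19 and 0.50 in both conditions together. Without Dox the difference of the Ctbp2 line from the others was -4.85 (SE 0.04), or 28.8-fold lower (limma, adjusted p = 1.6e-12), and 96.3% of the distance with Dox was kept. Its reference signal varied by 0.16 between the line means.

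The single members of Jmjd2c, Jarid2 and Etv5 were also low in both conditions. Z00063059-1 read -3.08 and -3.09 in the Jmjd2c line with Dox and at most -2.84 without. Every other array was between -0.54 and 0.13, and the difference without Dox was -2.76 (SE 0.06; limma, adjusted p = 3.7e-08). Z00036619-1 read -2.01 and -2.04 in the Jarid2 line with Dox and -1.88 and -1.90 without, against 0.07 to 0.79 on all other arrays. Without Dox the difference of the Jarid2 line was -2.24 (SE 0.04; adjusted p = 3.8e-09). Z00053992-1 was nearer to the rest: -1.98 and -2.04 in the Etv5 line with Dox, against -1.02 at the lowest elsewhere, and -1.64 and -1.67 without, against -0.90. That difference was -1.15 (SE 0.06; adjusted p = 9.1e-07).

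In the other 104 members no line stood apart, since the lines were spread along the range or fell into 2 sets. The most frequent division put Tcl1, Etv5 and Tbx3 below the largest gap and Jarid2, Jmjd2c, Ctbp2 and Mettl5 above it, in 29 members. In these the mean of the 4 higher lines exceeded that of the 3 lower ones by a median of 1.45 with Dox (1.06 to 2.30). On the arrays without Dox, which did not enter the choice, the difference had a median of 1.43 (0.83 to 2.46), and all 8 arrays of the higher lines were above all 6 of the lower lines in 28 of the 29. Over all tested probes 5.22% met that condition. The Jarid2 line was the highest in 18 of the 29. The reference range had a median of 0.26 in them, and the division also follows the slides, so that line and slide cannot be told apart here either.

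Z00022675-1 had the largest range of the 29, at 2.88. With Dox the lower lines read -1.67 and -1.59 (Tcl1), -1.85 and -1.53 (Etv5) and -1.58 and -1.33 (Tbx3). The higher lines ran from -0.02 in Jmjd2c to 1.24 in Ctbp2. Without Dox none of the 6 arrays of the lower lines was above -0.78, and the 8 of the higher lines lay between 0.35 and 1.24. Z00021597-1, named after its values were seen, showed the same division, with -0.94 to -0.30 in the lower lines and 0.48 to 1.42 in the higher lines with Dox. Without Dox its Tbx3 arrays fell outside both sets, at -2.01 and -2.29.

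The widest of the members with no line apart was Z00007374-1, with a range of 3.54. With Dox the Etv5 line was lowest at -2.55 and -2.28, Tcl1 and Tbx3 lay between -0.99 and -0.71, and the other 4 lines between 0.34 and 1.14. Without Dox the Etv5 line was again lowest, at -1.94 and -2.16. The lines differed without Dox (limma F test, adjusted p = 1.7e-08). Z00074756-1 spread in another order, with Tcl1 lowest at -1.51 and -1.44 and Tbx3 highest at 1.63 and 1.92. The remaining lines lay between 0.10 and 0.69 with Dox. Without Dox Tcl1 read -1.83 and -1.95 and Tbx3 1.27 and 1.31 (F test, adjusted p = 1.2e-08).

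The Jarid2 line was at the top of the order more often than any other, in 54 of the 200 members, but by small margins. Its gap to the second line had a median of 0.26, from 0.01 to 0.99, and in these 54 the lowest line was Tcl1 in 34, Etv5 in 12 and Tbx3 in 8. Without Dox Jarid2 was still the highest in 34 of the 54, where it was the highest in 13.7% of all tested probes. The Ctbp2 line kept the top in 26 of 35 members (8.62% of all probes), the Tcl1 line in 21 of 30 (25.9%), the Etv5 line in 21 of 32 (15.3%) and the Tbx3 line in 16 of 34 (22.4%). The bottom of the order was kept by Tcl1 in 75 of 86 (17.9%), by Tbx3 in 45 of 57 (22.8%), by Jarid2 in 19 of 24 (16.9%) and by Etv5 in 12 of 22 (17.6%). Jmjd2c and Mettl5 were at an end in 8 and 11 members.

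In few of the members was the difference between replicate wells large beside the range. The list still depends on single wells: without Tbx3 replicate 2 with Dox, the same rule chose 156 of the 200. The largest difference between the 2 arrays with Dox of any line had a median of 0.32 over the 200 and lay in the Tbx3 line in 109. It exceeded 0.5 of the range in 10 members, 0 of them among the 55 in which Tcl1 stood apart, and the whole range in 4. Of the 10, 7 differed between lines without Dox by the limma F test, against 180 of the other 190. The most extreme was Z00004595-1, named after its values were seen, which read -2.51 on 1 Ctbp2 array and -2.27 on 1 Tbx3 array with Dox (replicate 2 of each), while all other arrays of the 28 lay between 0.47 and 1.79. Without Dox its lines did not pass the test (F test, adjusted p = 0.0679), so 2 single arrays placed it among the members. The others whose replicates differed by more than their range were Z00067469-1, Z00031834-1 and Z00063945-1.

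Some members share sequence with each other. Over all pairs of members, 5 shared a run of at least 20 bases, with lengths of 23, 45, 56, 58 and 59. Their R over the 14 group means correlated at 0.989 to 1.000. This is a description only, since the 7 means with Dox among them chose both probes of a pair. The pair printed above, named after its values were seen, read 2.06 and 2.11 (Z00025726-1) and 2.23 and 2.14 (Z00074409-1) in the Tcl1 line with Dox. Both were lowest in Jarid2, at -0.75 to -0.71 with Dox. Without Dox both were lower in Tcl1, with a change of -0.46 in each, and higher in Ctbp2, by 0.63 and 0.67, with no overlap of the arrays in either line. Such pairs are not independent members, and unnamed probes of 1 transcript without shared bases may also be among the 200.

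A match of at least 30 bases to the RefSeq promoter windows of GRCm38.p6, which run from 250 bases before to 50 after a start site, was found for 3 members (1.5%), against 1.32% of all probes. Z00038074-1 matched 54 bases at chr9:50505002-50505055, opposite to the antisense gene Plet1os and on the strand of the protein-coding gene Plet1, whose RefSeq span (chr9:50494525-50505639) ends 584 bases further on. Plet1 encodes a surface protein known from the placenta and from epithelial progenitor cells. Whether the site is exonic was not resolved with the tables used. R was -1.85 and -2.15 in the Tcl1 line with Dox, -0.58 and -0.54 in Etv5, 0.09 in both Mettl5 arrays and 0.84 and 1.35 in Tbx3, with the other lines between 0.27 and 0.67. Tcl1 was lowest without Dox too, at -2.21 and -2.40, against 0.15 to 0.76 elsewhere (F test, adjusted p = 4.0e-09). On Dox removal the probe was higher by 0.73 in Etv5 and 0.45 in Ctbp2, and its change in Tbx3 was -0.47, with no overlap of arrays in each case.

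The other matches were weaker as annotations. Z00029022-1 matched chr9:114782177-114782236, upstream of Cmtm7 and on the opposite strand, where the RefSeq table lists no gene. It was highest in Tcl1, at 1.13 and 1.35 with Dox and 0.75 and 0.93 without, where the difference from the other lines was 1.15 (SE 0.08; limma, adjusted p = 1.6e-06). Z00063945-1 matched chr10:77978615-77978674, from 35 bases before to 24 after a start site of Cfap410, a gene for a protein of the cilium, on the gene's strand. Its Tbx3 arrays with Dox read 2.12 and 0.18, a difference larger than its range of 1.79.

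Members that passed a test of the change on Dox removal were unevenly spread over the lines. The change, without Dox minus with Dox, uses the arrays that chose the members, so the counts describe and support nothing. By limma (adjusted p under 0.05, over all tested probes of a line) 23 members were higher and 34 lower in Tcl1, where 9.14% of all tested probes passed, 32 and 10 in Etv5 (6.15%), 19 and 34 in Tbx3 (11%) and 43 and 16 in Ctbp2 (6.74%). In Jmjd2c 6 were higher and 3 lower (0.404%). None passed in Jarid2 (0.0174%), where 21 had an unadjusted p under 0.05, and none in Mettl5 (0.0217%), where 32 had. Without the Tbx3 array of the other slide, 6 members were higher and 12 lower in Tbx3, beside 0.93% of all probes. Of the 200, 86 passed in no line, 46 in 1, 38 in 2, 23 in 3, 6 in 4 and 1 in 5. The same distribution over all tested probes was not computed, so these counts are not read as a trait of the members.

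The sizes of the changes were mostly small beside the differences between lines. The median absolute change of the members was 0.25 in Tcl1, 0.20 in Etv5, 0.27 in Tbx3, 0.23 in Ctbp2, 0.16 in Jmjd2c, 0.12 in Mettl5 and 0.09 in Jarid2, where their median range between lines was 2.09. The probes from which they were chosen had medians of 0.08, 0.08, 0.12, 0.07, 0.05, 0.05 and 0.05. A rise of over 1 was seen in 4 members in Tcl1, 1 in Etv5, 5 in Tbx3 and 5 in Ctbp2, and a fall of over 1 in 2 members in Tbx3 alone. All 33 Tbx3-low members had a higher mean R without Dox, by 0.05 to 1.50, and the array of the other slide enters each of these means.

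The largest change in Etv5 was that of Z00003568-1, named after its values were seen, which read 0.57 and 0.79 with Dox and 1.82 and 1.74 without. In Ctbp2 the same probe read -0.95 and -1.02 with Dox and 0.00 and 0.03 without. Apart from probes with a divergent replicate, the largest in Ctbp2 was that of Z00031583-1, 1.43 (SE 0.10), the member in which Tcl1 was highest. In Tbx3 the largest fall was that of Z00021597-1, from -0.85 and -0.42 to -2.01 and -2.29, and on the array that shares the slide with those with Dox alone the change was -1.65, against -1.51 over both. In Jarid2 the lowest change was -0.41, of Z00035884-1 (named after its values were seen), from 0.91 and 0.88 to 0.52 and 0.45.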

How the data were processed

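Total RNA of 28 cultures (7 lines, 2 conditions, 2 wells each) was labelled with Cy3 and hybridised with a Cy5 reference, which the labels describe as a pool from 11 mouse lines mixed 2:1 with RNA of 129ES cells and the design text as containing MC1 cell RNA, to 2-colour Agilent arrays. The processed signals deposited by the authors are intensity values that Agilent Feature Extraction 9.5.1.1 made by background subtraction and dye normalization, per the file headers; the mean and background signals, also intensity, were used for an alternative. The deposited detection and quality columns are other values, flags of 0 or 1 per the file headers. The deposited value table of the authors holds 25030 probes, 133 of them members. Its scale is unstated, but the deposited values are log10: on each array 90.5% to 100% of well-detected probes lay within 0.01 of the log10 Cy3 signal minus the deviation of log10 Cy5 from its mean. Column medians were 2.25 to 2.28. How it treats low values is unknown.

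R = log2(Cy3/Cy5) of the processed signals was averaged per probe, without control spots. limma 3.58.1 in R 4.3.3 (lmFit and eBayes on group means, without a block) was fitted over 23008 probes, on the 14 arrays without Dox (7 residual degrees of freedom) for differences between lines and on all 28 for changes, two-sided, with Benjamini-Hochberg adjustment at 0.05. Single channels had each array's 75th percentile removed. In data simulated over 23008 probes, a small part of the probes was shifted, in the Tcl1 line without Dox alone. All lines had the same noise there, so the rates may not hold for the more variable Tbx3 line. The test of a line against the others without Dox recovered 96% of shifts of 1 and 92% of shifts of 0.5. The F test between lines recovered 88% and 60%, and the test of the change on Dox removal 92% and 86%. Members and lists were chosen with earlier results of these data known. Named were, per line, the 2 members of largest range at each side where it stood apart. So were the 2 widest with no line apart and the widest of the members divided 3 lines against 4. Those matched by sequence to the reference and the pair with the longest shared run, of 59 bases, were also named. The rest are those that make up a count of 5 or fewer, and the probes said to be named after their values were seen. Lists of marker genes were not used here, since no probe carries a gene name. Sequences are those of the files, and matches are to RefSeq on GRCm38.p6. Replicates were left out in turn, and other scales, channels, filters and fits were tried.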

Additional observations from a re-analysis of the deposited data

Results flagged for a closer look

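In 38 of the 200 members (19%) the mean change on Dox removal was at least 0.4, with no overlap of the arrays with and without Dox, upward in 1 line and downward in another. The same held in 1.69% of all 23008 tested probes. Without the Tbx3 line it held in 18 members (9%) and in 0.956% of all probes. The members were chosen on the arrays with Dox, which enter each change, so nothing is read from these shares. The difference between lines was not tested. Among the probes named in the text, the gap between the 2 most opposed changes was 2.54 for Z00036262-1 (Tcl1 against Tbx3), 2.10 for Z00021597-1 and 1.89 for Z00059271-1 (the same lines). Between Ctbp2 and Tbx3 it was 1.52 for Z00075186-1, 1.45 for Z00023314-1, with which that probe shares 59 bases, and 1.03 for Z00007374-1. Between Etv5 and Tbx3 it was 1.20 for Z00038074-1, the probe on the Plet1 strand. Between Tbx3 and Tcl1 it was 0.97 for Z00029022-1. Between Ctbp2 and Tcl1 it was 1.13 and 1.1 for Z00074409-1 and Z00025726-1, which share 58 bases, and 1.19 for Z00035884-1, which went up in Tcl1 and down in Ctbp2. Where the Tbx3 line was one of the 2, its change on the arrays of 1 slide kept its sign in each of these probes. In size it fell short of 0.4 there in Z00023314-1 (-0.37), Z00075186-1 (-0.33) and Z00059271-1 (-0.30). Groups of 2 arrays are too small to test for a single array far from the rest.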

How the results depend on the processing

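The list itself depends on the scale: after normexp and loess the same rule chose 109 of the 200 members, against 142 with Cy3 alone, 168 after median centring, 138 without the Tbx3 line and 156 to 195 when 1 array with Dox was left out. The cause was not tested. Of the 96 members with a line apart, 93 passed without Dox. The count was 57 of the 60 in the authors' value table and 58 of 59 without the Tbx3 line, where fewer members could be tested, and 48 of 49 with a gap of at least 2/3 of the range, where fewer qualify. It was 81 to 94 when 1 array was left out, lowest without Tbx3 replicate 2 without Dox. Members that differed between lines numbered 183 to 197 with 1 array left out. Changes on Dox removal, 220 of 1400 tests, fell to 98 with each line fitted alone, which leaves fewer degrees of freedom, and were 187 to 284 with 1 array left out. With the replicate number as a block the 3 counts were 93, 189 and 248. No share of all tested probes is given here for the F test, the changes, the block or the left-out arrays. Nothing about the members is read from those counts. Same-numbered arrays deviated together at correlations of 0.38 in Tcl1, 0.15 in Tbx3 and -0.06 to 0.03 in the other lines. Whether the numbers pair the samples cannot be told from these values, and the main fits treat the arrays as unpaired. No result reversed under any alternative run, and of the 647 values of named probes, 644 kept their side of the threshold. With 2 arrays a group, the number of arrays limits precision.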
